A study of Mus musculus with 15 samples.

Results

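The promoters described here belong to A20, a feedback inhibitor of NF-kB signalling encoded by Tnfaip3, and to 6 genes whose products work with it or beside it: Tnip1, Tnip2, Tnip3, Tax1bp1, Itch and Cyld. They were chosen by gene symbol, by translating the RefSeq name of each row of the deposited promoter list, so the rule itself uses no measured value. The 7 genes had 9 promoter rows among 25881, because Tnfaip3 and Tnip1 were each listed with an upstream and a downstream transcription start site (TSS), which were kept apart throughout. Promoters with a coverage score above 100 are called well covered here. They numbered 13559 in the whole list and 8 of the 9 rows of the family, the exception being Tax1bp1 (76.75).

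A20 is a ubiquitin-editing enzyme: it removes and attaches ubiquitin chains on signalling proteins downstream of TNF and Toll-like receptors, and so shuts down the NF-kB response that induces its own gene. Tnip1, Tnip2 and Tnip3 (ABIN proteins) bind ubiquitin chains and A20, Tax1bp1 is an adaptor, and Itch is a ubiquitin ligase that acts in the same complex. Cyld is a separate deubiquitinase, which removes linear and lysine-63-linked chains from the same pathway. At active promoters, DNA just upstream of the TSS is usually poor in nucleosomes (the nucleosome-depleted region, NDR), and the nucleosomes on either side (the +1 nucleosome downstream and the −1 nucleosome upstream) lie at preferred distances from the TSS.

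Nucleosome occupancy came from ChIP-MNase, in which an antibody pulls down large pieces of fixed chromatin before micrococcal nuclease trims them to nucleosomes, so that each profile describes the alleles that carry the antibody's target. An antibody against H3K4me1, a histone mark of active and poised promoters and enhancers, gave 12 of the 15 mouse libraries: dendritic cells (DCs) without stimulation (ns) or after 1 h of LPS at 100 ng/ml, 3T3 fibroblasts ns or given TNF-α (5 ng/ml, 1 h), each as 1 set of 2 merged replicates, and 2 libraries each of control-vector and BAF-knockdown 3T3 fibroblasts, ns and with TNF-α. The other 3 came from TNF-α-stimulated 3T3 fibroblasts with antibodies against RNA polymerase II phosphorylated at serine 7 (S7P, 2 libraries) or serine 5 (S5P, 1 library). The DCs were differentiated in culture from a bone-marrow progenitor line with GM-CSF, 3T3 is an established fibroblast line, and BAF-knockdown cells stably expressed, from a retroviral vector, a short hairpin RNA against a sequence shared by Brg1 and Brm (Smarca4 and Smarca2), the ATPases of the BAF remodelling complex. Nothing in the tables measures the remaining Brg1 or Brm in these cells, since promoter occupancy is not mRNA. Replicates of single libraries are called independent samples in the study, and the merged sets have no replicate.

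The tables hold smoothed occupancy in 200 bins of 10 bp around each TSS, scaled by the authors within 1 kb, and no read counts. The study gives its sequencing depth as ranges over replicates, and a mean promoter coverage per cell type that was higher in DCs than in fibroblasts. The depth of each library is therefore not known here, and overall occupancy cannot be compared between promoters. The share of bins with any fragment gives a rough guide: over all well covered promoters it ran from 63.5% to 90.2% of bins in the 15 libraries, and over the 8 well covered promoters described here from 72.1% to 94.4%. Replicate libraries of 1 group agreed weakly promoter by promoter, with r of NDR depth (defined with its values) between 0.236 and 0.388 over 13559 promoters. The expression values deposited beside the promoters come from published RNA-seq of other samples, so they describe the cell types and cannot check the cells of these libraries. In them, 10 of 11 promoters of DC marker genes were expressed in DCs and 1 in fibroblasts, and all 10 promoters of fibroblast marker genes were expressed in fibroblasts and 3 in DCs.

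The upstream sequences are shown because they divide the family before any occupancy is considered. Within 150 bp upstream of the TSS, 4 of the 9 promoters held letters of the NF-kB consensus on either strand, a 10-letter motif that begins with GGG and ends with CC, against 5.68% of the 13559 well covered promoters. These 4 were the upstream TSS of Tnfaip3, both TSSs of Tnip1, and Tnip3; Tnip2, Tax1bp1, Itch, Cyld and the downstream TSS of Tnfaip3 held none in this window. A CCAAT box was found in 3 of the 9 (26.3% of well covered promoters), GGGCGG, the core of the GC box, in 4 (42.5%), and TATAAA starting between −40 and −20 bp in 0 (1.68%). TATAAA was read on the strand of the gene and the other motifs on both strands, overlapping matches included, and a match describes letters only. The stretches below are from the mm9 reference, each in the direction of its gene, and leave out bases annotated as exon: chr10:18735217-18735353 (minus strand), chr10:18731770-18731919 (minus), chr11:54776443-54776592 (minus), chr11:54769681-54769774 (minus), chr6:65540243-65540391 (plus) and chr8:91220778-91220926 (plus), in the order printed. Capitals mark NF-kB, CCAAT and GC-box letters on either strand. The stretch of the downstream TSS of Tnip1 ends at −57 bp, before its CCAAT and GC-box matches, and the others reach to within 2 bp of the TSS.
Tnfaip3 upstream: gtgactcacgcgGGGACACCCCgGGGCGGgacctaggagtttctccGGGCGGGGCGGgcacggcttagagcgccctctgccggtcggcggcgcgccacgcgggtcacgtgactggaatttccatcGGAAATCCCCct
Tnfaip3 downstream: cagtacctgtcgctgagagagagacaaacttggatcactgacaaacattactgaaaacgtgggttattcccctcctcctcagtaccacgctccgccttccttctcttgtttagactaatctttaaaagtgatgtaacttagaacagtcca
Tnip1 upstream: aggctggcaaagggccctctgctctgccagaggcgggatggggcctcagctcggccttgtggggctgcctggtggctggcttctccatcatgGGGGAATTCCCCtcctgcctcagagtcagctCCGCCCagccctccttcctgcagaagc
Tnip1 downstream: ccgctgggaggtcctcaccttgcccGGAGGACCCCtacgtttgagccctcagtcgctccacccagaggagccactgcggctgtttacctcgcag
Tnip3: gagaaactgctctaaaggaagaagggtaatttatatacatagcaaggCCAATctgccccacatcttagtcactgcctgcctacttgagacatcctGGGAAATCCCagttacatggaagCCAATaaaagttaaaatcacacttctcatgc
Cyld: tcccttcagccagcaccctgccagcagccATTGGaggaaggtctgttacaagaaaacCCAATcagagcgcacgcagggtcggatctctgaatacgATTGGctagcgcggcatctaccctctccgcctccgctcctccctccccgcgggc

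The 2 starts of Tnfaip3 differ in kind. The upstream TSS (NM_009397, chromosome 10, position 18735216, minus strand) held NF-kB letters at −125 to −116 bp and again at −12 to −3 bp, with 3 GC-box matches between −114 and −81 bp. The downstream TSS (NM_001166402, position 18731769, 3447 bp away inside the gene) held none of the 4 motifs. Their base composition also differed: within 200 bp of the TSS the upstream start was a CpG island (GC above 50% and a CpG observed-to-expected ratio above 0.6) and the downstream start was not, with 47% GC and a ratio of 0.27. The same contrast ran the other way at Tnip1, whose downstream TSS (NM_001199275, chromosome 11, position 54769624, minus strand) was a CpG island, while its upstream TSS (NM_001199276, position 54776442, 6818 bp away) was not (ratio 0.22). In all, 6 of the 9 starts were CpG islands, against 56.2% of well covered promoters; Tnip3 had none either (ratio 0.23). The starts of Tnip2 (NM_139064, chromosome 5, position 34856628, minus strand), Tnip3 (NM_001001495, chromosome 6, position 65540393, plus), Tax1bp1 (NM_025816, chromosome 6, position 52663724, plus), Itch (NM_008395, chromosome 2, position 154959218, plus) and Cyld (NM_173369, chromosome 8, position 91220928, plus) each stood alone. An annotated GENCODE start of the same gene lay within 27 bp of every TSS.

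Transcript levels before stimulation, deposited as FPKM (fragments scaled by transcript length and library size) from published RNA-seq, separated the family by cell type. In DCs all 9 starts were above the level at which a promoter was taken as expressed, and in fibroblasts 6 were. The 3 below it in fibroblasts were the upstream TSS of Tnfaip3 (2.35e-05 FPKM, against 7.47 in DCs), its downstream TSS (1.17 against 4.80) and Tnip3 (listed at 0, against 5.66). The other starts ranged in fibroblasts from 3.13 FPKM at the upstream TSS of Tnip1 to 88.0 at Tax1bp1, and in DCs from 0.585 at the downstream TSS of Tnip1 to 4.71 at Tax1bp1. At Tnip1 the upstream start was the higher of the pair in DCs (4.31 against 0.585) and the lower in fibroblasts (3.13 against 6.95). These are single values without an error. The scale differs between the cell types (the mean over all promoters was 2.54 in DCs and 79.8 in fibroblasts), so only ranks within a cell type compare. Tnip3 stood at percentile 95.6 in DCs, and Tax1bp1 at percentile 98.2 in fibroblasts. The upstream TSS of Tnfaip3 stood at percentile 96.9 in DCs and 31.5 in fibroblasts, and its downstream TSS at 94.7 and 57.7.

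**Figure D1:**
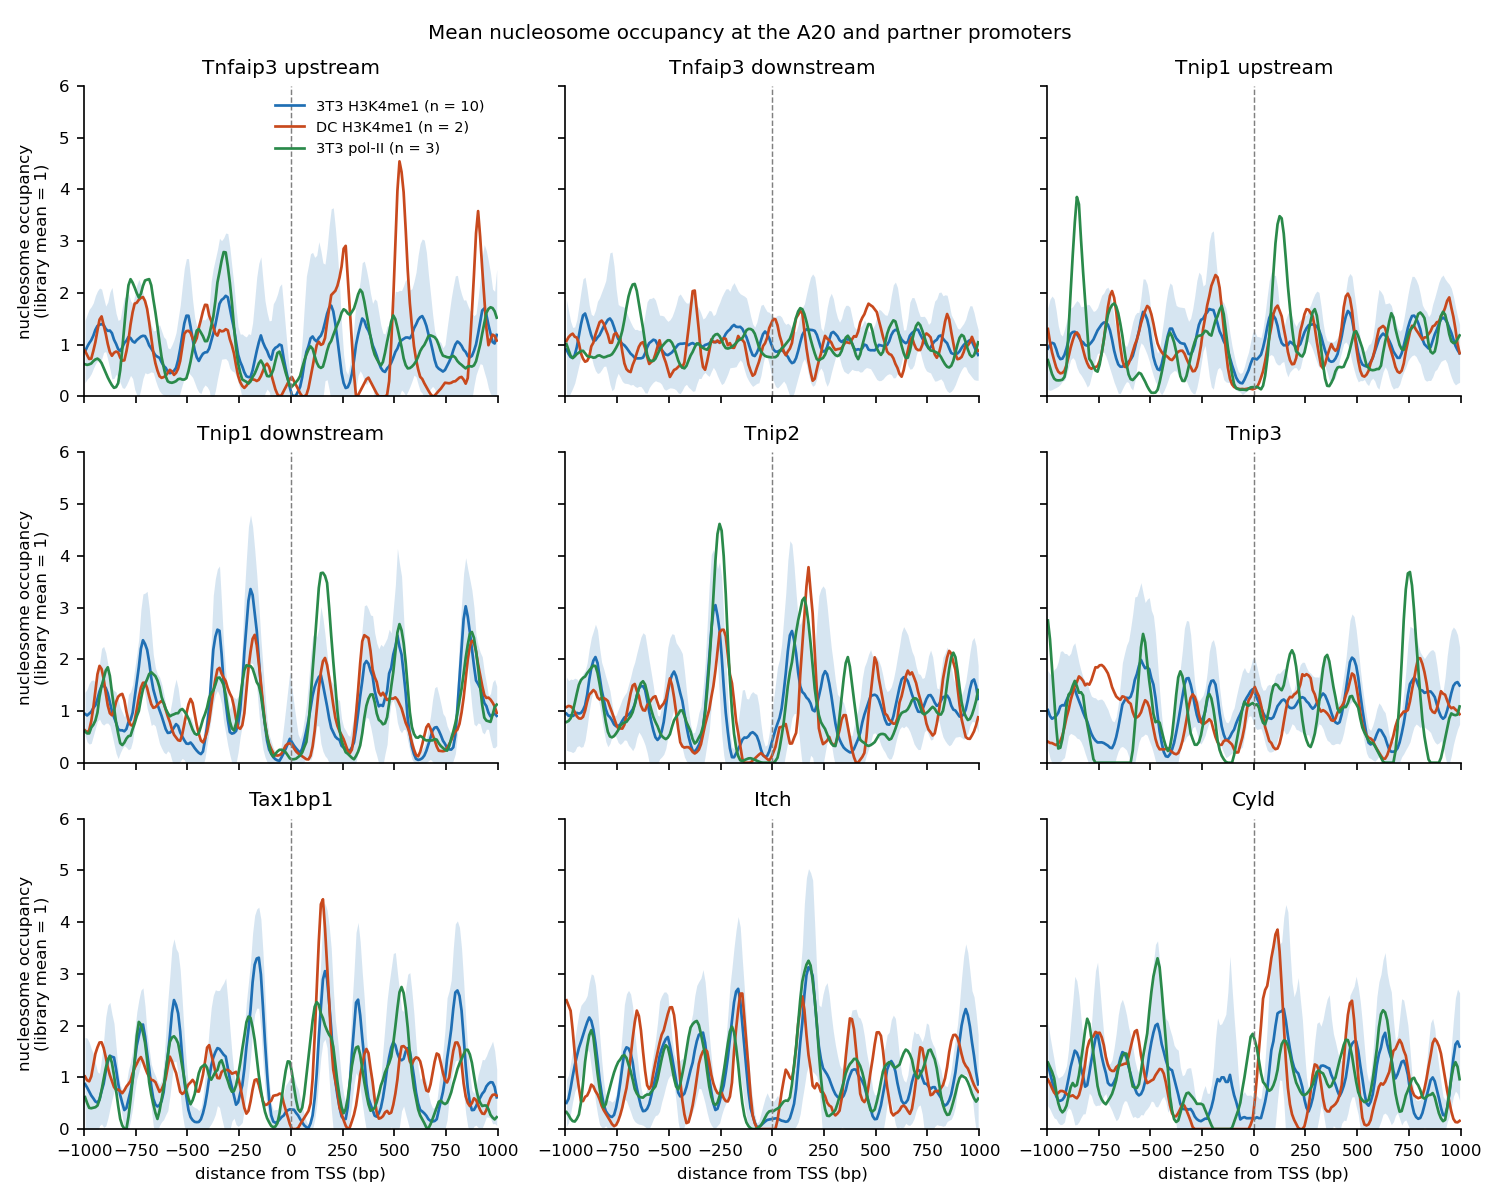
Mean nucleosome occupancy (library mean = 1, vertical axis) against distance from the TSS in bp (horizontal axis) for the 9 promoters, in fibroblast H3K4me1 libraries (blue, n = 10, shading ± 1 SD), DCs (orange, n = 2) and pol-II libraries (green, n = 3). In the fibroblast H3K4me1 average, Tax1bp1, Itch and the downstream TSS of Tnip1 have a trough at the TSS between peaks on either side. The downstream TSS of Tnfaip3 stays near 1 there. At Tax1bp1 the pol-II average is 1.13 at the TSS.

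Tax1bp1, Itch and the downstream TSS of Tnip1 had a trough at the TSS between peaks on either side in the fibroblast H3K4me1 average. At the downstream TSS of Tnip1, averaged over the 10 fibroblast H3K4me1 libraries, occupancy (relative to the library mean) stayed below 0.5 from −120 to 70 bp, between a −1 peak at −195 bp with a height of 3.36 ± 1.43 (SD, n = 10) and a +1 peak at 145 bp with a height of 1.70 ± 1.32. In the 2 DC sets the low stretch ran from −110 to 110 bp, between peaks at −175 and 165 bp. The low stretch was 190 bp wide in fibroblasts and 220 bp in DCs, where the medians over all well covered promoters were 80 and 100 bp. Its outline varied between sets of libraries. The low stretch was 90 bp wide in control and 180 bp in BAF-knockdown averages (n = 4 each). The highest bin within 400 bp upstream of this TSS was at −355 bp in control and −185 bp in knockdown averages. These 2 bins need not mark the same nucleosome, so no shift of the −1 nucleosome can be read from them. Tax1bp1 had a low stretch from −100 to 110 bp between peaks at −155 bp (height 3.31 ± 0.98) and 165 bp (3.05 ± 1.31), and control and knockdown averages placed these peaks at −165 and −155 bp and at 165 bp in both. Its low stretch was 220 bp wide in control but 80 bp, from −100 to −20 bp, in knockdown averages. Occupancy at this TSS was 0.30 in control, 0.61 in knockdown and 1.13 in pol-II averages. Itch had its low stretch from −110 to 110 bp between peaks at −165 and 175 bp, which control and knockdown averages placed at −185 and −165 bp and at 165 and 175 bp. The stretch of Itch was 140 bp wide in control and 210 bp in knockdown averages.

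Tnip2 and Cyld, a partner and the separate deubiquitinase, were low upstream of the TSS but less regular. Tnip2 had its −1 peak at −275 bp in fibroblasts and at −235 bp in DCs. In DCs, occupancy at Cyld was below 0.5 from −410 bp to the TSS, a stretch of 410 bp that exceeded the 90th percentile of all well covered promoters (240 bp). In fibroblasts the Cyld stretch was 130 bp, from −80 to 50 bp. Its 3 CCAAT boxes lay at −121 to −117, −93 to −89 and −55 to −51 bp, all inside the low stretch of DCs, whereas in the fibroblast average only the nearest to the TSS was inside. The fibroblast stretch depended on the libraries averaged. It ran from −110 to 50 bp in control libraries, with the box at −93 to −89 bp inside as well. In TNF-α H3K4me1 libraries the longest stretch ran from −350 to −150 bp, with no box inside, beside a peak of 1.45 ± 3.23 (SD) at −115 bp. That peak rested on knockdown library 2, where the window from −150 to 0 bp held 2.38 times the library mean. In the merged set, control libraries 1 and 2 and knockdown library 1 this window, which covers all 3 boxes, held no fragment.

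The 2 starts of Tnfaip3 showed little of this outline. At the upstream TSS, occupancy was below 0.5 from −100 to 100 bp in DCs and from −20 to 60 bp in fibroblasts, so that the NF-kB letters next to the TSS were inside the low stretch of both cell types and those at −125 to −116 bp were outside it in both. At the downstream TSS no stretch of the fibroblast average fell below 0.5 near the TSS, as at 19.4% of well covered promoters, and in DCs it was 30 bp wide. Tnip3 had a fibroblast peak over the TSS itself (5 bp, height 1.35 ± 0.66, SD, n = 10), with 30 bp of low occupancy upstream from −140 to −110 bp, and its DC low stretch ran from −180 to −50 bp.

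**Figure D2:**
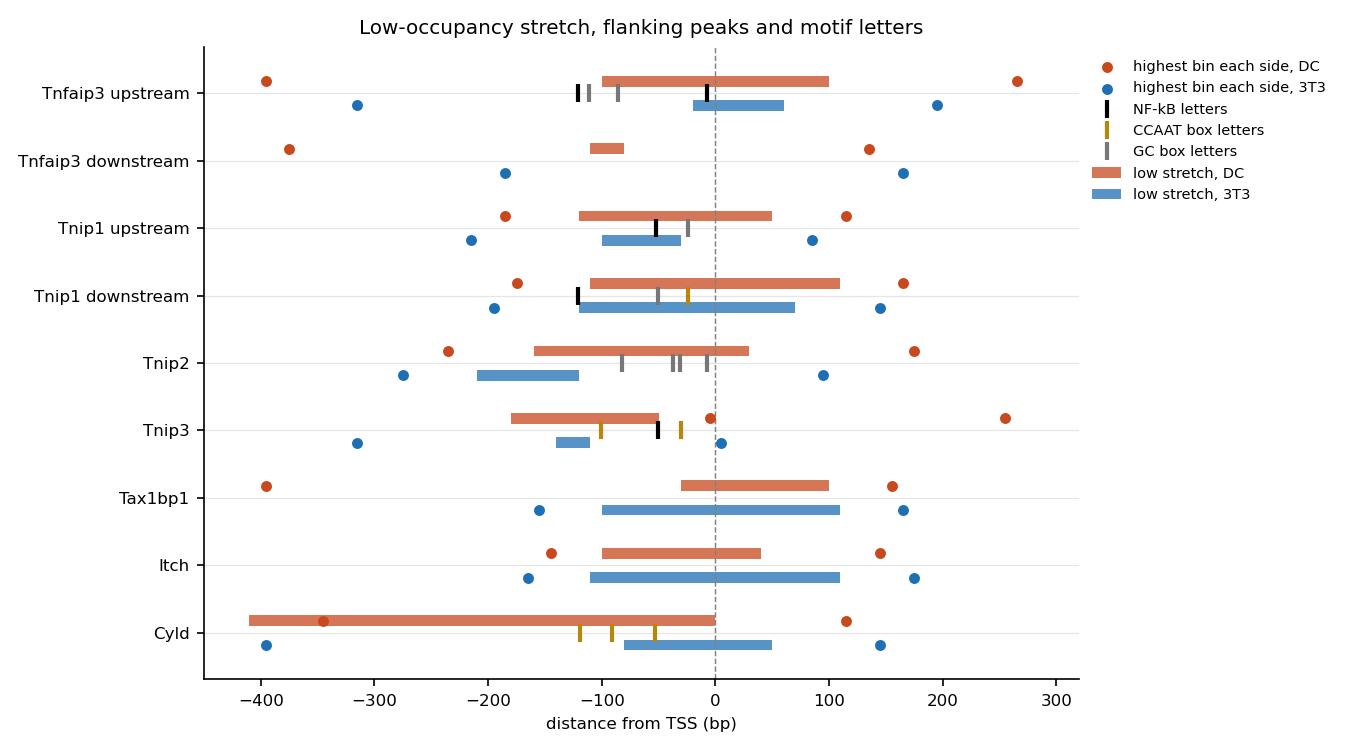
For each promoter, the stretch of averaged occupancy below 0.5 of the library mean (bars), the highest bin within 400 bp upstream and 300 bp downstream of the TSS (dots) and the positions of motif letters (ticks), against distance from the TSS in bp, for DCs (orange, 2 libraries) and 3T3 fibroblasts (blue, 10 H3K4me1 libraries). The fibroblast bars of Itch, Tax1bp1 and the downstream TSS of Tnip1 are 220, 210 and 190 bp wide, and the downstream TSS of Tnfaip3 has no fibroblast bar.

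How well the profile of a promoter recurred from library to library varied widely within the family. The mean correlation of a promoter's 200 bins over all pairs of the 10 fibroblast H3K4me1 libraries was 0.485 at the downstream TSS of Tnip1 (percentile 98.8 of well covered promoters, median 0.174), 0.427 at Tax1bp1 and 0.346 at Itch. It was −0.015 at the downstream TSS of Tnfaip3 (percentile 0.184), although the coverage score of that promoter was 531 and its bins were among the best filled (83.0% to 100.0% of bins with a fragment). At the upstream TSS of Tnfaip3 the mean correlation was 0.067 (percentile 11.3). Averages of libraries gave the same order of the 3 starts named next. Control and BAF-knockdown averages correlated at 0.862 for the downstream TSS of Tnip1, 0.820 for Tax1bp1 and −0.194 for the downstream TSS of Tnfaip3 (median of all 0.453), and DC and fibroblast averages at 0.752, 0.427 and −0.047 (median 0.414). For the upstream TSS of Tnip1, DC and fibroblast averages correlated at 0.721. Within fibroblasts its control and knockdown averages correlated at 0.420, and its ns and TNF-α averages at 0.382 (median of all 0.521). Its mean over pairs of single fibroblast libraries was 0.147, which does not compare with correlations of averages. These correlations describe bins that share smoothing and scaling within a library and carry no test.

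The depth of the NDR was measured as the log2 ratio of mean occupancy from −150 to 0 bp over that from −1000 to −500 bp, so that negative values mean depletion at the TSS; a pseudocount of 0.1 of the library mean was added to both, which puts a window without fragments near −3.5. Over the 15 libraries the median depth was −2.74 at Tnip2 and −2.58 at Cyld, at percentiles 8.86 and 10.3 of well covered promoters, whose median was −0.50. Itch (−1.32), the downstream (−1.28) and upstream (−0.86) TSSs of Tnip1 and the upstream TSS of Tnfaip3 (−1.02) followed. Tax1bp1 (−0.60), Tnip3 (−0.43) and the downstream TSS of Tnfaip3 (−0.06) were the shallowest. At Tax1bp1 the window from −150 to 0 bp covers only part of the fibroblast low stretch (−100 to 110 bp). It also reaches close to the −1 peak at −155 bp, so depth describes that trough incompletely. The depth was below 0 in all 15 libraries at 2 of the 8 well covered promoters, the downstream TSS of Tnip1 and Itch, where 10.6% of all well covered promoters were; the same 2 were below 0 in all 10 fibroblast H3K4me1 libraries (15.1% of all).

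Individual libraries scattered far more than these medians differ. At the upstream TSS of Tnfaip3 the depth was −0.61 in ns and −3.52 in LPS-stimulated DCs, and −3.66 in ns and −1.02 in TNF-α-stimulated fibroblasts of the merged sets. In control cells it was 0.86 and −3.07 ns and 0.04 and 0.51 with TNF-α, and in BAF-knockdown cells −3.41 and 0.42 ns and −1.18 and 0.35 with TNF-α. The S7P libraries gave 0.26 and −1.41, and the S5P library −2.39. The 2 control ns replicates alone spanned most of the range of all 15 values, and 4 of the 15 came from a window without any fragment. The downstream TSS of Tnfaip3 stayed closer to 0, between −1.07 in control TNF-α library 1 and 1.11 in control ns library 1, with every window filled. Its 2 DC values were −0.06 and −0.22, and its merged fibroblast values −0.05 ns and −0.61 with TNF-α.

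The widest spread was at Cyld, and the narrowest among the partners at Tax1bp1. Cyld ranged from −3.70 in LPS-stimulated DCs to 0.92 in BAF-knockdown TNF-α library 2, with 6 of 15 windows empty, and Tnip2 from −3.74 in S7P library 1 to 0.45 in control TNF-α library 1, with 5 empty. All well covered promoters had a mean of 2.40 empty windows of 15. Tax1bp1 ranged from −2.28 to 0.42 and had no empty window, but its coverage was the lowest. Itch (−3.25 to −0.29) and the downstream TSS of Tnip1 (−3.53 to −0.29) never reached 0, the latter with 1 empty window.

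**Figure D3:**
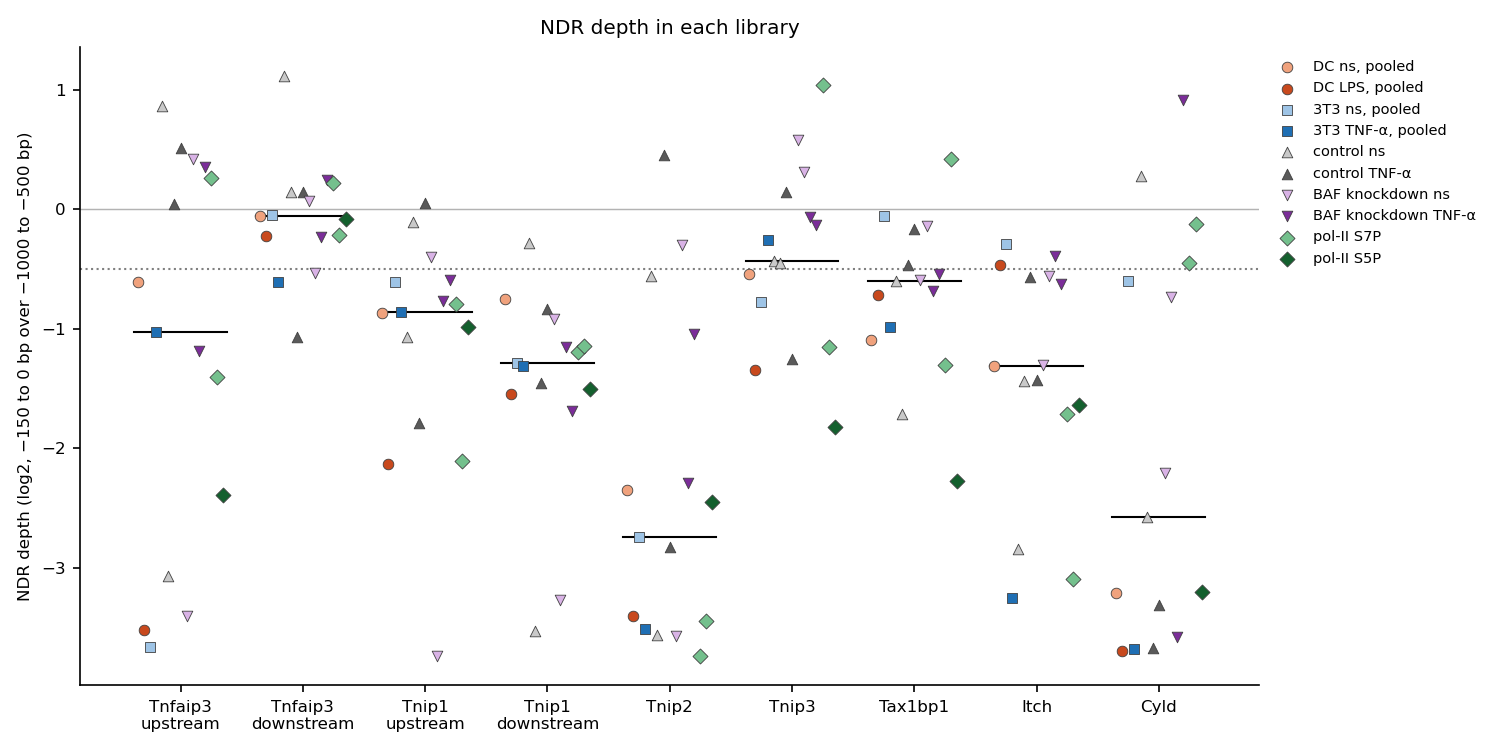
NDR depth (log2, negative = depleted) of the 9 promoters in each of the 15 libraries (1 point per library, marker by group; black bar, median of the 15; dotted line, median of all well covered promoters, −0.50). All points of Itch and of the downstream TSS of Tnip1 lie below 0, and those of Cyld and of the upstream TSS of Tnfaip3 spread from about the floor to above 0.

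Ordered by median depth over the 10 fibroblast H3K4me1 libraries, the starts ran Tnip2, Cyld, Tnip1 downstream, Itch, Tnip1 upstream, Tax1bp1, Tnfaip3 upstream, Tnip3 and Tnfaip3 downstream, from −2.51 to 0.01. No pair of neighbours in this order differed by more than the SD of its own difference over the 10 libraries. For the starts of 1 gene, the upstream TSS of Tnfaip3 was deeper than the downstream TSS by 1.11 on average (upstream minus downstream −1.11 ± 1.65, SD over 15 libraries) and lower in 10 of 15 libraries. At Tnip1 the difference was 0.34 ± 1.06, with the upstream TSS lower in 6 of 15. Neither exceeded the spread between libraries.

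Patterning was measured as the likeness of a promoter's profile to the mean profile of expressed promoters of the same cell type (template-weighted occupancy, library mean = 1, so that 0 means no likeness). It was highest at the downstream TSS of Tnip1 (median 10.1 over 15 libraries, percentile 89.1 of well covered promoters), Cyld (9.72), Tnip2 (9.52), Tax1bp1 (9.02) and Itch (8.87), and the median of all well covered promoters was 2.88. The 2 Tnfaip3 starts were at 5.14 upstream and 2.58 downstream, the upstream TSS of Tnip1 was at 5.42, and Tnip3 was at 0.41 (percentile 29.1). Levels were mostly higher at CpG islands: the 6 starts with an island had medians from 5.14 to 10.1 and the 3 without from 0.41 to 5.42, where the median of the 7614 well covered promoters with an island was 5.62 and that of the 5945 without was 0.56. Within 1 gene, patterning at the upstream TSS of Tnip1 was below that of its downstream TSS in 12 of 15 libraries (−3.48 ± 5.61, SD), and at Tnfaip3 the difference was 3.44 ± 7.50.

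**Figure D4:**
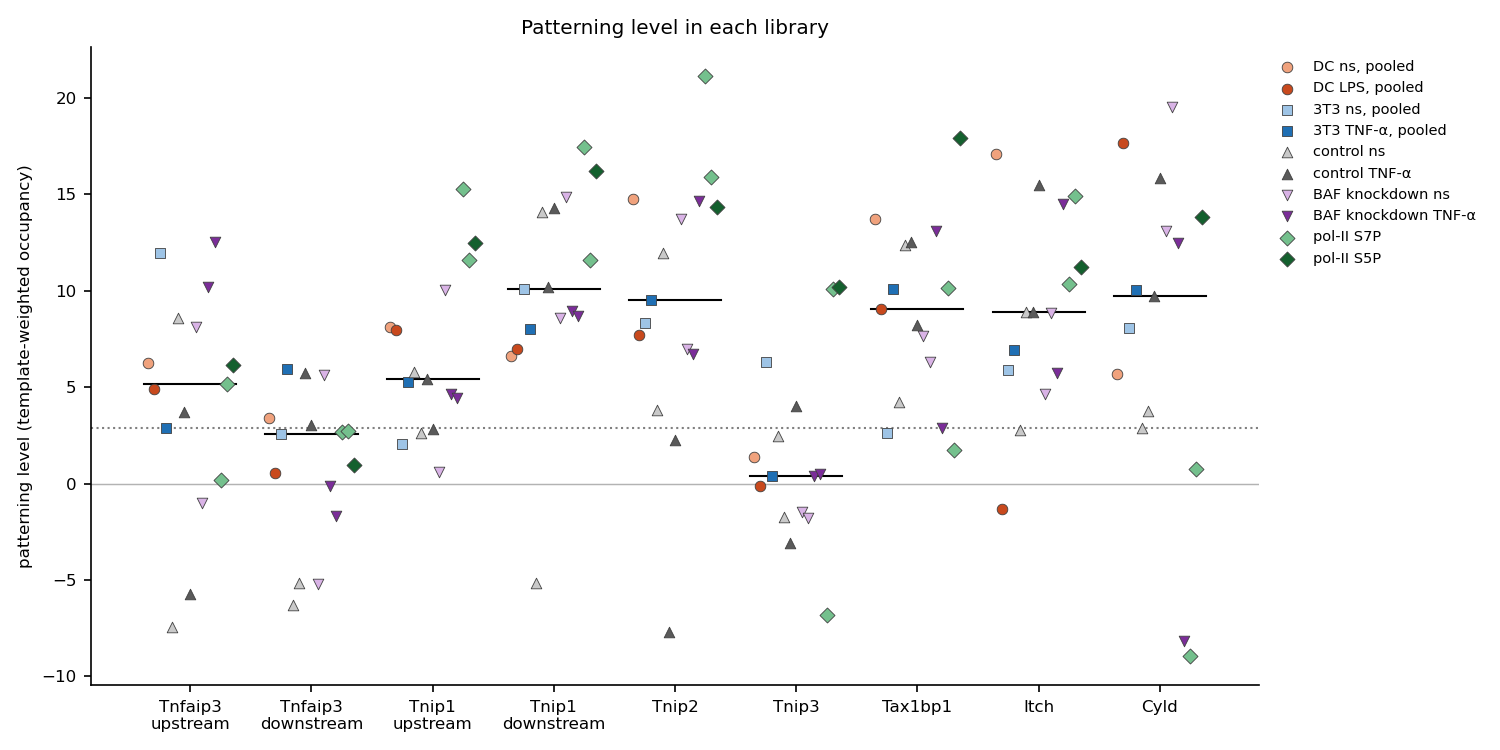
Patterning level (template-weighted occupancy) of the 9 promoters in each of the 15 libraries (points, marker by group; black bar, median; dotted line, median of all well covered promoters, 2.88). The medians of the downstream TSS of Tnip1, Cyld, Tnip2, Tax1bp1 and Itch lie between 8.87 and 10.1, above the other 4 starts.

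The response to TNF-α was tested in control and BAF-knockdown fibroblasts together (8 libraries, limma, Benjamini-Hochberg adjusted p under 0.05 over 13559 promoters). No promoter passed for NDR depth (0%) or for patterning (0%), and 855 (6.31%) and 779 (5.75%) had an unadjusted p under 0.05, none of them among the 8 promoters of the family. At the upstream TSS of Tnfaip3, the mean depth was −1.30 in the 4 ns libraries and −0.07 in the 4 TNF-α libraries, a difference of 1.23 (SE 1.24, limma adjusted p = 0.928). It lay between 0.24 (without control ns library 2) and 2.21 (without control ns library 1) when 1 library was left out. The values behind it overlapped, from −3.41 to 0.86 ns and from −1.18 to 0.51 with TNF-α. The downstream TSS changed from 0.20 to −0.23 (difference −0.43, SE 0.46, limma adjusted p = 0.929), and by −0.12 without control TNF-α library 1 and −0.73 without control TNF-α library 2. Its largest change was in control cells, where depth went from 1.11 and 0.14 ns to −1.07 and 0.14 with TNF-α (−1.09, SE 0.65, limma adjusted p = 0.923), and patterning from −6.29 and −5.14 to 5.75 and 3.01 (10.1, SE 4.17, limma adjusted p = 0.831). In BAF-knockdown cells the patterning of this start changed by −1.11 (SE 4.17). The other 6 well covered promoters changed in depth by −1.10 (Cyld) to 0.78 (Itch), with SEs from 0.41 to 1.23.

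BAF knockdown, which lowers the remodelling ATPases, was tested over ns and TNF-α in the same fit. Again 0 promoters passed (0% for depth and 0% for patterning), with 770 (5.68%) and 799 (5.89%) at an unadjusted p under 0.05, none of them in the family. The depth of the upstream TSS of Tnfaip3 was −0.41 in control and −0.95 in knockdown libraries (difference −0.54, SE 1.24, limma adjusted p = 0.963), and that of the downstream TSS 0.08 and −0.12 (−0.20, SE 0.46, limma adjusted p = 0.963). Patterning at the upstream TSS averaged −0.21 in control and 7.45 in knockdown libraries (7.66, SE 4.64, limma adjusted p = 0.867; 3.65 without control ns library 1 and 11.7 without control ns library 2), but control libraries ran from −7.43 to 8.60 and knockdown libraries from −1.03 to 12.5. At the downstream TSS it was −0.67 and −0.36. In 2 of the 4 BAF-knockdown libraries, replicate 1 in both states, the files carried another digestion label than the rest. Without these 2 the knockdown difference in depth at the upstream TSS was 0.80 rather than −0.54, and 1 library alone also turned it: without control ns library 1 it was 0.44, and without knockdown ns library 1 it was 0.42.

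Whether the TNF-α response differed between control and knockdown cells was tested by the interaction. No promoter passed (0% for depth and 0% for patterning), and 818 (6.03%) and 766 (5.65%) had an unadjusted p under 0.05, none in the family. For depth the interaction was −0.30 (SE 2.49, limma adjusted p = 1) at the upstream and 1.33 (SE 0.91, limma adjusted p = 0.904) at the downstream TSS of Tnfaip3. For patterning it was 9.40 (SE 9.27, limma adjusted p = 0.913) and −11.2 (SE 5.90, limma adjusted p = 0.858). Leaving out 1 library moved the first to 1.38 (control ns library 2) or 17.4 (control ns library 1) and the second to −5.78 (knockdown ns library 2) or −16.6 (knockdown ns library 1), and the depth interaction at the downstream TSS to between 0.72 and 1.94. The 95% interval of the depth interaction at the upstream TSS ran from −6.50 to 5.90.

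DCs and fibroblasts were compared over the 4 merged sets, in which the 2 states of a cell type stand in for replicates. No promoter passed (0% for depth and 0% for patterning), with 1071 (7.9%) and 1079 (7.96%) at an unadjusted p under 0.05, and none in the family. At Tnfaip3, whose transcript levels differed between the cell types, the upstream TSS averaged −2.06 in DCs and −2.34 in fibroblasts (difference 0.28, SE 1.40, limma adjusted p = 0.98), and the downstream TSS −0.14 and −0.33 (0.19, SE 0.49, limma adjusted p = 0.951). Patterning differed by −1.83 (SE 4.13, limma adjusted p = 0.932) and −2.28 (SE 3.55, limma adjusted p = 0.898). At Tnip3, which was also transcribed in DCs and listed at 0 in fibroblasts, depth was −0.55 and −1.35 in DCs and −0.78 and −0.26 in fibroblasts. The other differences in depth ran from −1.31 at Cyld to 0.88 at Itch, with SEs of 0.52 to 1.14. With all 12 H3K4me1 libraries in the fit, 18 promoters passed, none of the family, and the depth difference at the 2 Tnfaip3 starts changed sign (−1.05 upstream and −0.06 downstream).

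Stimulation in the merged sets has 1 library per state and therefore no test. At the upstream TSS of Tnfaip3, depth changed by −2.91 with LPS in DCs and by 2.64 with TNF-α in fibroblasts. Both moves involve a window without fragments, in LPS-stimulated DCs and in ns fibroblasts. Cyld changed by −0.49 and −3.07, Itch by 0.85 and −2.96, and the 2 Tnip1 starts by −1.26 and −0.25 upstream and −0.80 and −0.03 downstream. Of all well covered promoters, 33.2% changed by more than 1 with LPS and 36.1% with TNF-α, so changes of this size are common in single sets. The TNF-α change of Itch was of the other sign in the control replicates (1.14).

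Alleles bound by polymerase were compared with H3K4me1 alleles in TNF-α-stimulated fibroblasts, S7P against control (2 libraries each). No promoter passed (0% for depth and 0% for patterning), and 1389 (10.2%) and 840 (6.2%) had an unadjusted p under 0.05. In the family these were Cyld in depth, and Tnip2 and Cyld in patterning; they are named here after their values were seen. At Cyld, depth was −0.45 and −0.12 in S7P libraries and −3.67 and −3.31 in control libraries (difference 3.20, SE 0.48, limma adjusted p = 0.248). The S7P windows held 0.92 and 0.98 times the library mean and the control windows held no fragment, so the size of the difference is set by the pseudocount: it was 4.13 with 0.05 and 2.10 with 0.25 of the library mean. The S5P library (−3.20) and the merged TNF-α set (−3.67) were at the floor as well, and the BAF-knockdown TNF-α libraries gave −3.58 and 0.92. Cyld patterning was −8.94 and 0.75 in S7P and 9.72 and 15.8 in control libraries (−16.9, SE 5.11, limma adjusted p = 0.743). Tnip2 went the other way, from −7.72 and 2.25 in control to 21.1 and 15.9 in S7P libraries (21.2, SE 5.05, limma adjusted p = 0.743), and the 2 other H3K4me1 merged fibroblast values, 8.34 and 9.52, lay between.

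At the Tnfaip3 starts, S7P and control depths differed by −0.85 upstream (SE 0.79, limma adjusted p = 0.761; −0.018 without S7P library 2 and −1.68 without S7P library 1) and 0.47 downstream (SE 0.66, limma adjusted p = 0.846), and patterning by 3.65 (SE 4.89, limma adjusted p = 0.881) and −1.69 (SE 3.27, limma adjusted p = 0.92). The S5P library was deeper than all 3 H3K4me1 libraries of TNF-α-stimulated fibroblasts without knockdown at 3 of 8 promoters (21.9% of all well covered promoters): Tnfaip3 upstream (−2.39 against −1.02 to 0.51), Tnip1 downstream (−1.51 against −1.45 to −0.83) and Tnip3 (−1.82 against −1.25 to 0.14). It was above all 3 at 1 of 8 (20.5% of all), Cyld, but all 4 of those windows were empty and the order of their values came from the flank alone. Tnip3 patterning was 10.2 in S5P and 10.1 in S7P library 2 but −6.83 in S7P library 1, against −3.07, 4.01 and 0.41 in the H3K4me1 libraries. Pol-II libraries were sequenced from both ends of the fragments and H3K4me1 libraries from 1 end. The H3K4me1 libraries tested against S7P also came from control-vector cells, a label that the pol-II libraries lack. In that test the antibody, the sequencing and the vector cannot be told apart.

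**Figure D5:**
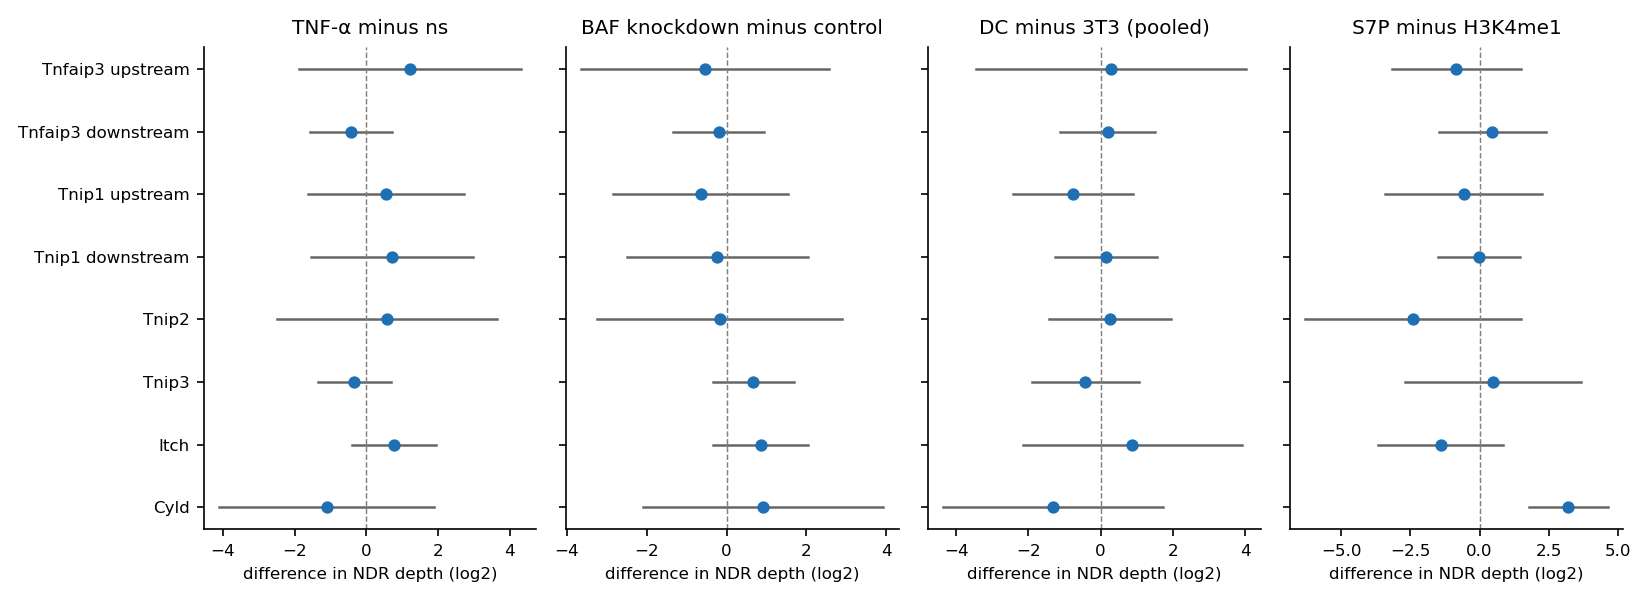
Differences in NDR depth (log2, points) with 95% intervals (lines) for the 8 well covered promoters in 4 comparisons: TNF-α minus ns, BAF knockdown minus control, DC minus 3T3 and S7P minus H3K4me1. The only interval clear of 0 is that of Cyld in S7P libraries (3.20), which did not pass after adjustment.

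How large a change these comparisons could have found was checked on simulated shifts of 200 promoters. In the 8-library TNF-α comparison, 40.5% of shifts of 4 in depth and 0% of shifts of 2 were recovered, and 20% of patterning shifts of 20 and 0% of shifts of 10. With 2 libraries against 2 (cell types, S7P), 0% were recovered at any of these sizes. Shifts of 2 in depth at 200 promoters were therefore not recovered in the comparisons simulated. The knockdown effect and the interaction were not simulated, and recovery depends on how many promoters are shifted and on their spread.

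Other ubiquitin machinery and kinases of TNF and Toll-like receptor signalling were read from a list of 36 symbols, of which 32 were found, with 37 promoters and 26 well covered ones. None of the 26 passed in any of the 10 comparisons. At an unadjusted p under 0.05 there were 0 to 3 of the 26 in each comparison, which are few to read against shares of 5.65% to 10.2% of all well covered promoters. For the TNF-α response in depth, 1 was higher and 2 lower (6.31% of all): Map3k7 (TAK1, the kinase that activates the IkB kinases; 2.85, SE 0.90, limma adjusted p = 0.667), Ikbkg (NEMO, the ubiquitin-binding subunit of the IkB kinase complex, TSS NM_001161422; −2.23, SE 0.48, limma adjusted p = 0.426) and Rbck1 (HOIL-1, a subunit of the linear ubiquitin ligase, TSS NM_019705; −1.10, SE 0.39, limma adjusted p = 0.703). The median change of the list was −0.29, that of the 8 A20-family promoters 0.56 and that of all well covered promoters −0.08. For BAF knockdown, 2 were lower and 0 higher (5.68% of all), both of them starts of Ikbkg (−1.72, SE 0.48, and −2.06, SE 0.72), and the medians were 0.03 for the list, −0.19 for the family and 0.0025 for all. Between cell types, 2 were higher in DCs (shallower; 7.9% of all): Rnf31 (HOIP, the catalytic subunit of the linear ubiquitin ligase; 1.50, SE 0.48) and Spata2 (which links Cyld to that ligase; 1.68, SE 0.47). The interaction had 1 higher and 1 lower, and S7P libraries 2 higher (Rnf31, 2.81, and Myd88, the adaptor of Toll-like receptors, 2.33) and 1 lower (Rbck1, TSS NM_001083921, −1.63), with a list median of 0.67 against 0.18 for all. In patterning, 0 passed an unadjusted p under 0.05 for TNF-α, 1 was higher with knockdown (the same TSS of Rbck1, 10.9, SE 2.46, limma adjusted p = 0.827), 2 were higher and 1 lower for the interaction and in S7P libraries, and 1 was higher and 2 lower in DCs.

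The promoters whose depth ran most like that of Tnfaip3 over the 15 libraries were Pip5k1c (r = 0.86), Rpl29 (0.82), 9230116N13Rik (0.82), Tbc1d10a (0.78) and Coil (0.77) for the upstream TSS. For the downstream TSS they were Eif4e2 (0.81), Zfp512b (0.79), Cbln1 (0.75) and both starts of Nxt1 (0.75 each). Of all well covered promoters, 1 in 1000 exceeded 0.757 for the upstream and 0.726 for the downstream TSS. The 5 highest of 13559 pass such a level by the way they were picked. No other member of the A20 family was among the 5 highest of either start.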

How the data were processed

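Fixed chromatin was recovered by ChIP and digested with MNase in 15 libraries. Per the labels and the study's methods, the authors aligned reads to mm9 with bowtie (the submitters' processing notes list Bowtie2, version 2, and bedtools), removed excess duplicates, placed nucleosomes by fragment length (pol-II, paired-end) or by extending reads (H3K4me1, single-end), divided each 10 bp bin by the surrounding 1 kb and smoothed over 50 bp. The deposited values are therefore a relative occupancy signal. The promoter list gives a coverage score by the authors and, as deposited, FPKM before stimulation; its 2 columns of log2 expression differences upon stimulation, made by the authors, were not used. RefSeq names were translated to symbols for 96.3% of the 25881 rows, and profiles, which hold no row names, were matched to promoters by row order. This was checked in 2 ways: filled bins followed the coverage score more closely in row order (rho 0.0576 to 0.656) than shifted by 1 row (0.0495 to 0.434), narrowly in the emptiest libraries, and CpG-island promoters were deeper than others by −0.134 to −1.35 in row order against 0.0129 to −0.348 shifted, the larger gap being in row order in all 15 libraries.

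NDR depth and patterning were computed per promoter and library and tested with limma 3.58.1 (R 4.3.3) on 13559 promoters with a coverage score above 100, without a replicate block, with Benjamini-Hochberg adjustment and tested first on simulated data. A promoter was called expressed above 0.02 times the mean FPKM of its cell type. The template was the mean profile of those promoters in ns cells, rescaled, centred and multiplied with occupancy centred on the promoter's mean. Sequences and exons came from mm9 with the GENCODE annotation, read with Python 3.11.15, numpy 2.4.6 and pandas 2.3.3. Figures were drawn with matplotlib 3.10.9. The study gives sequencing depth as a range over replicates and the tables hold no counts, so no counting interval was computed. Alternatives were other pseudocounts (0.05 and 0.25), windows, references, templates, scales and coverage limits, other sets of libraries, a replicate block and leaving out each library; the fits without the 2 differently labelled libraries were chosen after the data were seen.

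All promoter rows of the 7 genes were described, with test values for Tnfaip3 and for members past the threshold, and others by ranges; those outside this rule are marked. The family is defined by gene symbol, but it and the lists were proposed with earlier results of these data known. p-values measure the spread between libraries of cultured cell lines.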

Additional observations from a re-analysis of the deposited data

Results flagged for a closer look

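Depth of the NDR moved in opposite directions with LPS in DCs and with TNF-α in the merged fibroblast sets at 4 of the 9 promoters, each contrast resting on 1 library per state. The change was −2.91 in DCs and 2.64 in fibroblasts at the upstream TSS of Tnfaip3, −0.80 and 0.52 at Tnip3, 0.38 and −0.93 at Tax1bp1, and 0.85 and −2.96 at Itch. In the control replicates the TNF-α change was 1.38 at the upstream TSS of Tnfaip3, −0.11 at Tnip3, 0.84 at Tax1bp1 and 1.14 at Itch. Its sign was that of the merged fibroblast sets only at Tnfaip3. The difference between the merged sets was not tested, since no state of them has a replicate, and 49.2% of all well covered promoters moved in opposite directions.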

How the results depend on the processing

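No call at the 0.05 threshold for a member appeared under any alternative: adjusted p ran from 0.173 to 1. In the 10 comparisons, each alternative was counted over all promoters and again over the family alone. Of these 274 counts past the threshold, 272 stayed at 0. The 2 others were the TNF-α by knockdown interaction in depth with the window −200 to 50 bp (1 promoter) and the cell type comparison in depth with 12 H3K4me1 libraries (18). Among 124 further counts of contrasts within 1 state or 1 cell line, 4 in depth left 0, with 3 (TNF-α in knockdown) and 2 (knockdown with TNF-α) without a coverage filter and 1 each (TNF-α in knockdown, knockdown ns) with coverage above 200, none of them in the family. The 23 followed differences were nearly all at the 2 Tnfaip3 starts, with Cyld and Tnip2 followed only in S7P libraries. Of 157 alternatives for them, 8 changed sign, all at Tnfaip3, and the cause was not tested. For the knockdown effect these were the upstream TSS without the differently labelled libraries (0.80 in depth) and the downstream TSS with the wider window (0.075 in depth) or the square root of occupancy (−0.27 in patterning). Square-root occupancy also turned the TNF-α change in patterning at the upstream TSS (−1.58). With 12 libraries the cell type difference became −1.05 and −0.061 in depth and 1.18 and 1.54 in patterning, upstream and downstream. Leaving out 1 library changed the sign in 17 of 140 fits. Depth ranged from −1.53 to 0.44 (upstream, knockdown), −0.50 to 0.11 (downstream, knockdown), −2.27 to 1.67 (upstream, interaction), −1.18 to 1.74 and −0.090 to 0.47 (cell type, upstream and downstream) and −0.14 to 1.08 (downstream, S7P). Patterning ranged from −0.90 to 7.12 (upstream, TNF-α), −2.41 to 3.02 (downstream, knockdown), −6.37 to 2.70 (upstream, cell type) and −1.07 to 8.36 (upstream, S7P). At Cyld the S7P difference in depth was 3.02 to 3.39 in such fits, but both control windows are at the floor, so these fits could hardly move it. They leave a group with 1 library, assumed to vary like the others.

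Differences between replicates 1 and 2 correlated between groups at −0.017 to 0.028 in depth over 10 pairs of groups and at −0.009 to 0.014 in patterning. Since replicates agreed weakly, these correlations cannot tell whether libraries of the same number share a batch. Replicate 1 had more bins filled than replicate 2 in each control and knockdown group (78.1% against 67.9% in BAF-knockdown ns). In S7P libraries it had fewer (69.2% against 80.0%). With a replicate block 0 promoters passed in each of the 8 comparisons it could be fitted to, and the adjusted p of the TNF-α change at the upstream TSS of Tnfaip3 (1.23, an estimate a block cannot move in this balanced design) was 0.917 with limma. Depth of sequencing is not known for each library, and empty windows set a floor that limits depth at Tnip2, Cyld and the upstream TSS of Tnfaip3.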
